A study of Homo sapiens with 18 samples.

Results

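The genes described here are the messenger RNAs made from mitochondrial DNA and the nuclear genes for their synthesis, processing and decay, in a human B-cell line after knockout of each NF-kB subunit. The members were chosen by name, and 35 of 36 names were found in the deposited table, each with a mean normalised read count of at least 10 over the 18 libraries. FASTKD2 was not analysed here. The 35 genes were 13 mitochondrially encoded mRNAs and 22 nuclear genes, out of 17155 rows in the table, of which 12381 had a mean of at least 10 and were tested. Mitochondrial ribosomal and transfer RNAs were not analysed here.

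Mitochondrial DNA is copied in both directions into long transcripts by its own RNA polymerase, POLRMT, with the factors TFAM and TFB2M at the promoters. The heavy-strand transcript is cut at its transfer RNAs into all the mRNAs but one, and MT-ND6 comes from the light strand. Most of the mRNAs are then given short poly(A) tails, held stable by LRPPRC with SLIRP, and degraded by PNPT1 with the helicase SUPV3L1, while NRF1 and the GABP factors are known to bind promoters of many nuclear genes that serve mitochondria.

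The line, GM12878, is a lymphoblastoid line of B cells transformed by Epstein-Barr virus, and all 18 libraries carry the label of wild-type LMP1, the viral protein that keeps NF-kB active. There were 6 groups of 3 libraries of polyadenylated RNA: a control whose guide targets no gene, and stable knockouts made with CRISPR and labelled p50 (gene NFKB1), p52 (NFKB2), RelA (RELA), RelB (RELB) and cRel (REL). Guides were delivered with lentivirus, puromycin at 3 µg/ml selected the cells for 5 days, and immunoblots then showed the loss of each subunit, per the labels' protocols. The labels name no clone, guide sequence or source of Cas9. The mRNA of the targeted gene had a log2 fold change against control of -0.59 for NFKB1 in the p50 knockout, -0.44 for NFKB2 in the p52 knockout and -0.69 for RELA in the RelA knockout. RELB mRNA was higher than in the control in the libraries labelled RelB (0.31, adjusted p = 1.7e-04), and REL mRNA did not pass the test in those labelled cRel (-0.02, adjusted p = 0.96). The mRNA goes against the first of these labels and does not check the second, so both groups are called by their labels. Edited transcripts can stay at their level when the protein is lost.

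Depth was between 15.2 and 37.5 M reads a library (median 22.1 M). The deviation of a library from its group mean followed gene length to differing degrees, with Spearman's rho across genes from -0.56 in control library 3 and -0.46 in p52 knockout library 3 to 0.45 in control library 2. All 7 B-cell markers were read in every library (MS4A1, 20072 to 29502 normalised reads), and CD3D and CD14, which define T cells and monocytes, were at 0 to 1.63 and 0 to 3.16. The summed 4 of 5 myeloid markers in the table, mostly CSF1R and ITGAM, ranged from 511 to 533 in the control, 559 to 648 in the cRel-labelled libraries, 822 to 900.1 in the p50 knockout, 832 to 933 in the p52 knockout, 448 to 495 in the RelA knockout and 907 to 975 in the RelB-labelled libraries. The summed 5 of 6 T and NK markers, mostly NKG7, ranged from 661 to 743 in the RelB-labelled libraries and from 320 to 546 in the other 15. The summed B-cell markers ranged from 125820 to 140050 in the control and reached 148390 in the cRel-labelled libraries. They ranged from 108070 to 124140 in the p50 knockout and from 122050 to 125440 in the RelA knockout, both below the control without overlap. The summed 3 fibroblast markers, nearly all COL1A1, ranged from 709 to 991 in the p50 knockout and from 1130.3 to 1321 in the control, while COL1A2 stood at no more than 3.31 in any library. The part of these differences in the results below was not tested.

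Transcripts of mitochondrial DNA were lower in the p50 knockout than in the control. In the RelB-labelled libraries the make-up of these transcripts stood apart in MT-ND1 and MT-ND4, while their joint share of reads was not lower. Of the 22 nuclear members 16 fell in the RelB-labelled libraries, with log2 fold changes down to -1.35 for FASTKD5. In the p52 knockout 14 fell and in the p50 knockout 11, while POLG2 rose in all 3 groups. Of all genes tested, 34.7% fell in the RelB-labelled libraries, 26.4% in the p52 knockout and 19.6% in the p50 knockout. Tests were made with limma on log2 of the normalised read count plus 1, p-values were adjusted over all genes tested, and a gene was called at an adjusted p under 0.05. "Rose" and "fell" are used below only of genes called. Fold changes are on that log2 scale, against the control unless another group is named. In the p50 knockout 27 of 35 members were called, against 36.7% of all genes tested; the count was 13 without p50 library 2 and 9 with the libraries numbered 2 left out of all 6 groups, an alternative chosen after seeing the data. In the p52 knockout 16 were called, against 50.8%, and in the RelB-labelled libraries 21 were, against 67.8%. For the p52 knockout and the RelB-labelled libraries these are smaller shares than those of all genes. In the cRel-labelled libraries 1 member was called and lower, against 6.09% of all genes called and 1.92% lower, and in the RelA knockout 0 were, against 5.55%, with 2 members at an unadjusted p under 0.05, and 0 called by edgeR or DESeq2.

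Per kilobase of gene, the mitochondrial mRNAs stood far above their nuclear machinery. The mean level over the 18 libraries ran from 28905 normalised reads per kilobase for MT-ND2, a subunit of complex I, to 137868 for MT-CO2, a subunit of cytochrome c oxidase, with MT-ND4 at 136210 and MT-CO3 at 129988. Among the nuclear members it ran from 134 per kilobase for PPARGC1B, a coactivator of mitochondrial genes, to 2900.3 for SSBP1, the protein that binds single-stranded mitochondrial DNA. MT-ATP8 and MT-ATP6 share 46 bases in the annotation, MT-ND4L and MT-ND4 share 7, and MT-ATP6 and MT-CO3 share 1. Reads in these overlaps, reads from nuclear copies of mitochondrial DNA, and for MT-ND6 reads from the opposite strand may be split between genes, and the sources used here do not say whether counting used strand. The level of a poly(A)-selected mitochondrial mRNA also depends on its short tail, which was not measured.

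The 13 mRNAs took 3.68, 4.22 and 5.03% of the reads in control libraries 1, 2 and 3. In the p50 knockout they took 3.55, 1.85 and 3.30%, all 3 below the lowest control library. In the RelB-labelled libraries they took 5.22, 4.77 and 5.34%, of which 1 lay within the control range. The shares were 4.31, 3.03 and 4.55% in the cRel-labelled libraries, 4.56, 3.45 and 3.30% in the p52 knockout and 4.08, 3.95 and 4.21% in the RelA knockout, and all 3 groups overlapped the control. The mean difference from control was -1.41 percentage points in the p50 knockout (two-sided exact permutation p = 0.1, the smallest that 3 against 3 can give) and 0.80 in the RelB-labelled libraries (exact p = 0.2). It was -0.35 in the cRel-labelled libraries (exact p = 0.7), -0.54 in the p52 knockout (exact p = 0.4) and -0.23 in the RelA knockout (exact p = 0.7). Library 2 of the p50 knockout held the lowest share of all 18, and without it the p50 difference was -0.88 (exact p = 0.2). In bulk RNA, fewer cells of a kind, fewer mitochondria per cell and less RNA per mitochondrion cannot be told apart.

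**Figure D1:**
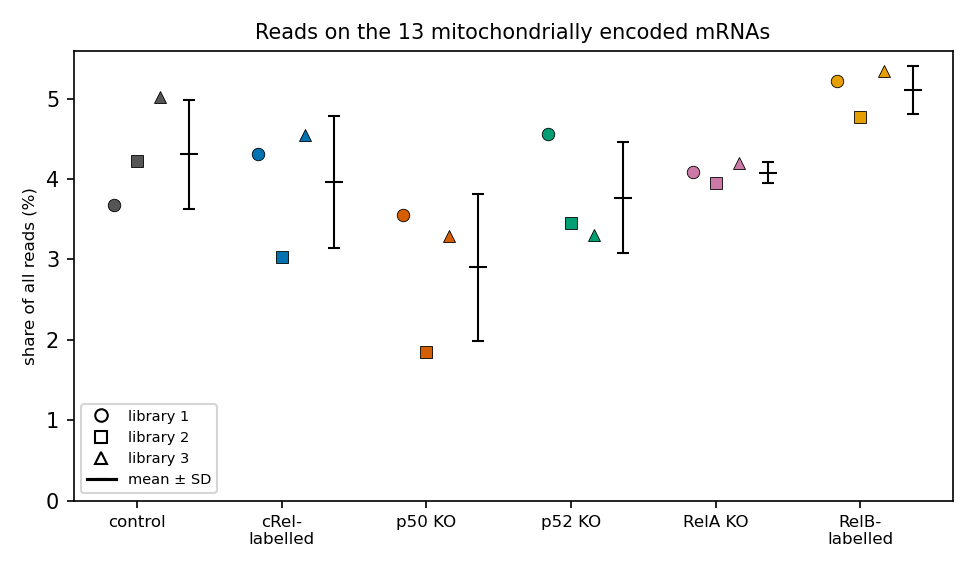
Share of all reads, in percent, taken by the 13 mitochondrially encoded mRNAs in each library; points are libraries, and the bars give the group mean and SD of 3 libraries. The p50 knockout libraries lie at 3.55, 1.85 and 3.30%, below the control libraries, and the RelB-labelled libraries lie at 4.77 to 5.34%.

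In the p50 knockout 12 of the 13 mitochondrial mRNAs fell, where 19.6% of all genes fell, with a median log2 fold change of -0.85 against -0.0028 over all genes. Since the 13 are cut from shared long transcripts, they are not independent genes, in this count or in the later counts of the 13. The lowest fold changes were those of MT-ATP6, a subunit of ATP synthase (-0.92 ± 0.24 SE, adjusted p = 0.0051), and MT-ND6, a subunit of complex I (-0.89 ± 0.24 SE, adjusted p = 0.0051). MT-CO2 had 96428, 96790.1 and 133098 normalised reads in the control and 80484, 46641 and 75409 in the p50 knockout. MT-CO3, another subunit of cytochrome c oxidase, had 102944, 118911 and 149409 in the control and 88140.1, 41538 and 80423 in the p50 knockout. MT-ND1, a subunit of complex I, had 39184, 47138 and 57888 in the control and 33837, 16180.4 and 31017 in the p50 knockout. In each of these 3 genes the p50 knockout libraries lay below all control libraries, and library 2 lay lowest.

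The log2 fold changes in the p50 knockout were -0.71 ± 0.16 (SE), adjusted p = 0.0016 for MT-CO2, -0.88 (adjusted p = 0.0021) for MT-CO3 and -0.88 (adjusted p = 0.0025) for MT-ND1. They were -0.86 for MT-ND2, -0.86 for MT-CYB of complex III, -0.85 for MT-ATP8, -0.81 for MT-ND5, -0.66 for MT-ND4, -0.57 for MT-CO1 and -0.34 for MT-ND4L, all called. MT-ND3 was not called (-0.31, adjusted p = 0.075). The count rests on p50 knockout library 2: without it 3 mitochondrial mRNAs were called, MT-ND1, MT-CO2 and MT-CO3, with a median of -0.46. It was 9 without control library 3, and 5 with the libraries numbered 2 left out. In a fit with the replicate number as a block all 13 were called. After quantile normalisation MT-ND4L (0.3), MT-CO1 (0.077) and MT-ND4 (0.056) were lost, these being adjusted p-values, and MT-ND4L was lost also with the length trend removed (0.12) and after rescaling to reads of nuclear genes (0.077).

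**Figure D2:**
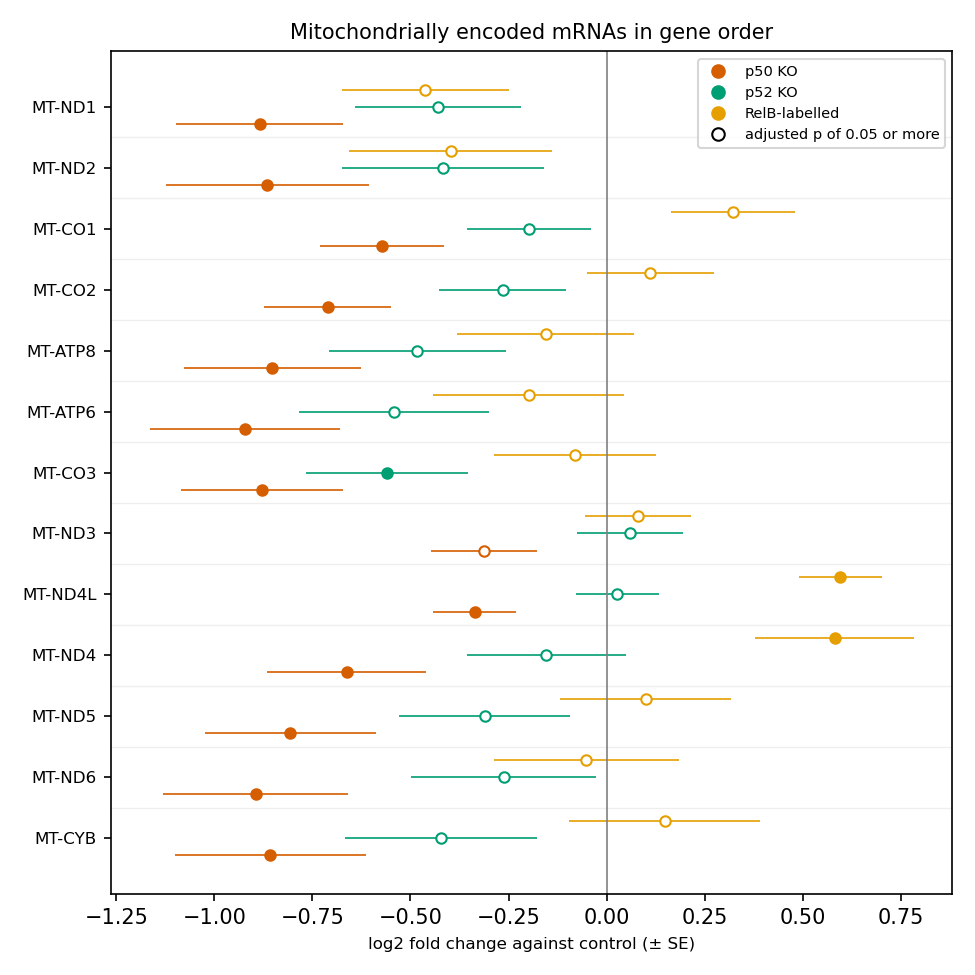
Log2 fold change against control of each mitochondrially encoded mRNA, in the order of the genes on mitochondrial DNA, for the p50 knockout, the p52 knockout and the RelB-labelled libraries; bars are 1 SE from limma, filled points passed an adjusted p of 0.05 and open points did not. The p50 values all lie below 0, and the RelB-labelled values run from -0.46 for MT-ND1 to 0.60 for MT-ND4L.

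In the p52 knockout the median over the 13 was -0.31 against 0.0022 over all genes, and MT-CO3 alone was called (-0.56 ± 0.21 SE, adjusted p = 0.027), where 26.4% of all genes fell. MT-CO3 stood at 105566, 75222 and 71769.5 normalised reads there, and its highest library lay inside the control range. The MT-CO3 call was lost without control library 3 (adjusted p = 0.13), p52 library 2 (0.096) or p52 library 3 (0.089), and with DESeq2 (0.053). Without p52 library 1, or without p50 library 2 in the shared fit, 5 were called; without control library 1, 3 were; and without p50 library 1 or cRel-labelled library 2, 2 were.

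In the RelB-labelled libraries 2 of 13 rose, MT-ND4 and MT-ND4L, which lie next to each other and share an mRNA, where 33.1% of all genes rose. MT-ND4, a core subunit of complex I, had 161528, 187199 and 227684 normalised reads in the control, 297489, 263996 and 293884 in the RelB-labelled libraries and 75645 to 211453 in the other 12. MT-ND4L, a small membrane subunit of the same complex, had 16780.1, 17645 and 17999 in the control, 26866, 25296 and 27055 in the RelB-labelled libraries and 11448 to 20511 in the other 12. The RelB-labelled libraries were the highest of all 18 in both. The fold changes were 0.58 ± 0.20 (SE), adjusted p = 0.015, for MT-ND4 and 0.60 (adjusted p = 3.7e-05) for MT-ND4L. MT-ND1 stood at 34839, 31952 and 36765 in the RelB-labelled libraries, all below the lowest control library, and did not pass the test (-0.46, adjusted p = 0.059). MT-CO1 had a log2 fold change of 0.32 (adjusted p = 0.075), and the other 9 lay between -0.40 for MT-ND2 and 0.15 for MT-CYB. The MT-ND4 call was lost without control library 1 (adjusted p = 0.078), where MT-ND1 was called instead. With control library 3 left out, or in a rescaling to reads of nuclear genes, MT-CO1 rose as well; in a fit of the control and RelB-labelled libraries alone 3 rose, and MT-ND1 and MT-ND2 fell; without p50 library 2 in the shared fit 4 were called, and 3 without p50 library 1, p52 library 1, p52 library 3 or cRel-labelled library 2.

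The shares of MT-ND1 and MT-ND4 in the mitochondrial mRNA of the RelB-labelled libraries stood apart from those of every other group, which is given as a description. Such shares are taken within a library, so they do not depend on its scaling. MT-ND4 made up 25.8, 25.0 and 24.5% of the mitochondrial mRNA reads there, 19.0, 19.2 and 18.7% in the control and 18.3 to 21.3% in the other 12 libraries. MT-ND1 made up 3.02, 3.03 and 3.07%, against 4.61, 4.82 and 4.76% in the control and 4.03 to 5.35% in the other 12. The ratio of MT-ND4 to MT-ND1 reads was 8.54, 8.26 and 7.99 in the RelB-labelled libraries. It was 4.12, 3.97 and 3.93 in the control, 4.72, 4.68 and 4.64 in the p50 knockout and 4.68, 4.76 and 5.12 in the p52 knockout, and 3.54 to 4.02 in the cRel-labelled and RelA knockout libraries. The RelB-labelled values overlap no other group, the p50 and p52 knockout values lie above the control, and no test was made of this ratio. MT-ND2, the other complex I gene near the start of the heavy-strand transcript, made up 2.65, 2.35 and 2.29% in the RelB-labelled libraries and 3.60, 3.55 and 3.69% in the control. The next lowest was p50 knockout library 2, at 2.68%. MT-CO3 did not stand apart, with 9.92 to 10.5% in the RelB-labelled libraries and the same range in the p52 knockout. The ratio of MT-CO1 to MT-CO3 was 1.55 to 1.59 in the control, 1.74 to 2.29 in the p50 knockout, 1.87 to 2.12 in the p52 knockout and 1.84 to 2.24 in the RelB-labelled libraries. It was 1.58 to 1.86 in the cRel-labelled libraries, which overlap the p50 and RelB-labelled ranges, and 1.53 to 1.71 in the RelA knockout.

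**Figure D3:**
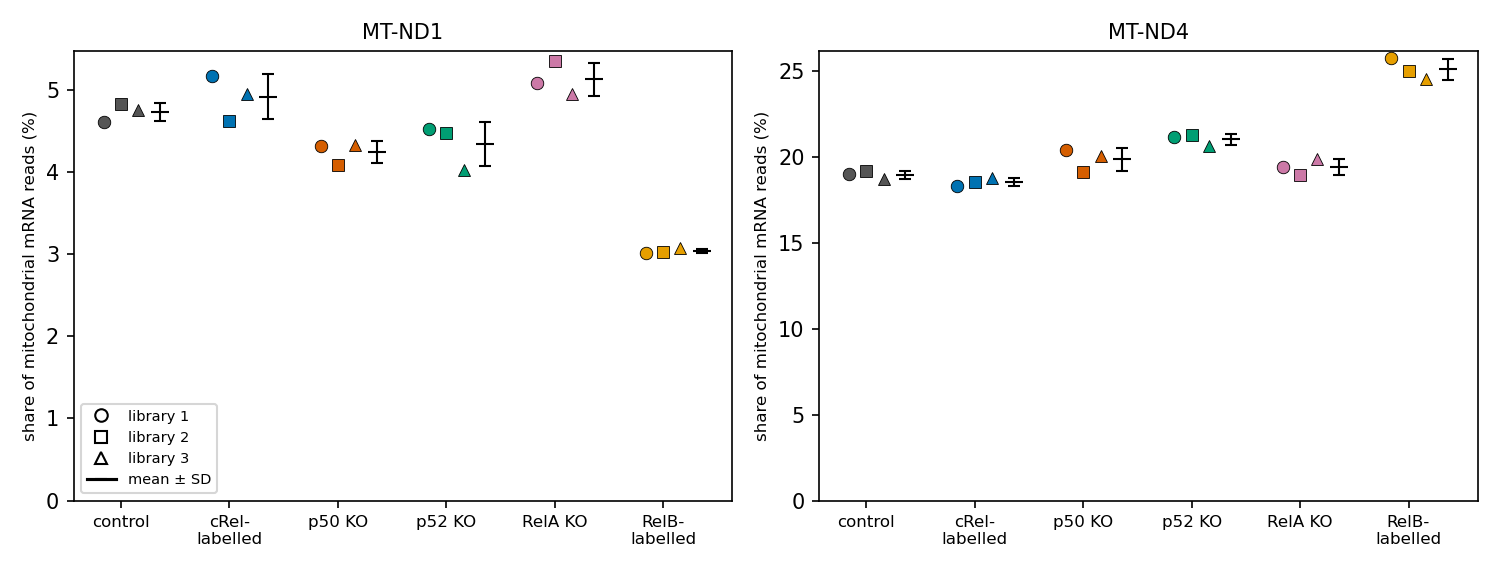
Share of the mitochondrial mRNA reads of each library, in percent, taken by MT-ND1 and by MT-ND4; points are libraries, and the bars give the group mean and SD of 3 libraries. In the RelB-labelled libraries MT-ND1 lies at 3.02 to 3.07%, below every other library, and MT-ND4 at 24.5 to 25.8%, above every other library.

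The ratio of MT-ND4L to MT-ND4 was 0.0903 to 0.0958 in the RelB-labelled libraries and 0.0791 to 0.104 in the control, which overlap. It was highest, at 0.151, in p50 knockout library 2, and next, at 0.121, in cRel-labelled library 2. Those were also the libraries with the lowest mitochondrial shares, at 1.85% and 3.03%. In p50 knockout library 2 MT-CO1 made up 24.0% of the mitochondrial mRNA reads, and MT-ATP6 6.99%. The other p50 knockout libraries had 19.5 and 20.3% for MT-CO1, and 8.86 and 8.40% for MT-ATP6.

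MT-ND6, the light-strand mRNA, which is known to carry little or no poly(A) tail, had 16863, 19433 and 27845 normalised reads in the control and 14993, 6598 and 14359.7 in the p50 knockout. It had 18742, 18472 and 23659.9 in the RelB-labelled libraries, 21086, 14459.6 and 17329 in the p52 knockout, 20622, 12772 and 22088 in the cRel-labelled libraries and 19073, 19609.9 and 19953 in the RelA knockout. The p50 knockout libraries lay below the control and the other 4 groups overlapped it. Set against the other 12 mRNAs of the same library, MT-ND6 stood at 2.02, 2.03 and 2.34% in the control and 1.65, 1.78 and 2.01% in the RelB-labelled libraries, which lay lower without overlap. The other 12 include MT-ND4, at 25.8, 25.0 and 24.5% of the mitochondrial mRNA reads in the RelB-labelled libraries and 19.0, 19.2 and 18.7% in the control. The part of MT-ND4 in the lower MT-ND6 ratio was not tested. The mean log2 ratio differed from control by -0.23 in the RelB-labelled libraries (exact permutation p = 0.1) and -0.17 in the p50 knockout (exact p = 0.3). It differed by -0.042 in the cRel-labelled libraries (exact p = 0.7), 0.041 in the p52 knockout (exact p = 0.7) and 0.0054 in the RelA knockout (exact p = 1).

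Among the 5 genes of the transcription machinery, 4 fell in the RelB-labelled libraries, 2 in the p52 knockout and 2 in the p50 knockout, where POLRMT rose, against 34.7%, 26.4% and 19.6% of all genes that fell. TFAM, which packs mitochondrial DNA and opens its promoters, had 4633, 4703 and 4594 in the control, 4238, 4181 and 4191 with p50 knocked out, 3372, 3441 and 3689.8 with p52 knocked out and 3079.6, 3096 and 3006 in the RelB-labelled libraries. Its other 6 libraries lay at 4446 to 4886. All p50, p52 and RelB-labelled libraries lay below the control, the RelB-labelled ones lowest. The fold changes of TFAM were -0.60 ± 0.05 (SE), adjusted p = 1.3e-09, in the RelB-labelled libraries, -0.41 (adjusted p = 1.2e-06) in the p52 knockout and -0.14 (adjusted p = 0.035) in the p50 knockout. The p50 call for TFAM was lost without any 1 of control library 1, control library 2 or the 3 p50 libraries, with adjusted p from 0.054 to 0.089, and it was 0.46 when values were rescaled to reads of nuclear genes. The adjusted p was 0.7 after quantile normalisation, 0.066 after scaling by TMM and 0.066 with edgeR. It was 0.13 in a fit of the 2 groups alone and 0.25 with the libraries numbered 2 left out.

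TFB2M, which POLRMT needs to start transcription, had 1695, 1663 and 1659 in the control, 1500.2, 1431 and 1369.8 with p50 knocked out, 1245, 1341 and 1355 with p52 knocked out and 878, 820.4 and 920.4 in the RelB-labelled libraries. All 9 of the latter libraries lay below the control and the RelB-labelled ones lowest. The fold changes were -0.94 ± 0.06 (SE), adjusted p = 1.3e-11, in the RelB-labelled libraries, -0.35 (adjusted p = 6.2e-05) in the p52 knockout and -0.22 (adjusted p = 0.0069) in the p50 knockout. The p50 call of TFB2M was lost after rescaling to reads of nuclear genes (adjusted p = 0.087) and with the libraries numbered 2 left out (0.072).

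TFB1M, an RNA methyltransferase of the small mitochondrial ribosomal subunit, had 554, 625 and 669 in the control, 455, 453 and 461 in the RelB-labelled libraries and 471 to 711 in the other 12. It fell in the RelB-labelled libraries (-0.43, adjusted p = 2.1e-04), as did the elongation factor TEFM (-0.39, adjusted p = 0.0019). POLRMT, the polymerase itself, had 2742, 2874 and 2976 in the control, 3355, 3298 and 3093 with p50 knocked out, 2853, 2937 and 2689 with p52 knocked out and 2822, 3040.5 and 2873 in the RelB-labelled libraries, and 2881, 2824 and 2742 in the cRel-labelled libraries and 2677, 2736 and 2462 in the RelA knockout. Its p50 knockout libraries were the 3 highest of the 18 (0.18, adjusted p = 0.019), a call lost without control library 1 (adjusted p = 0.081), p50 library 1 (0.068) or p50 library 2 (0.062). In the RelB-labelled libraries the fold change of POLRMT was 0.02 ± 0.06 (SE), adjusted p = 0.73.

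**Figure D4:**
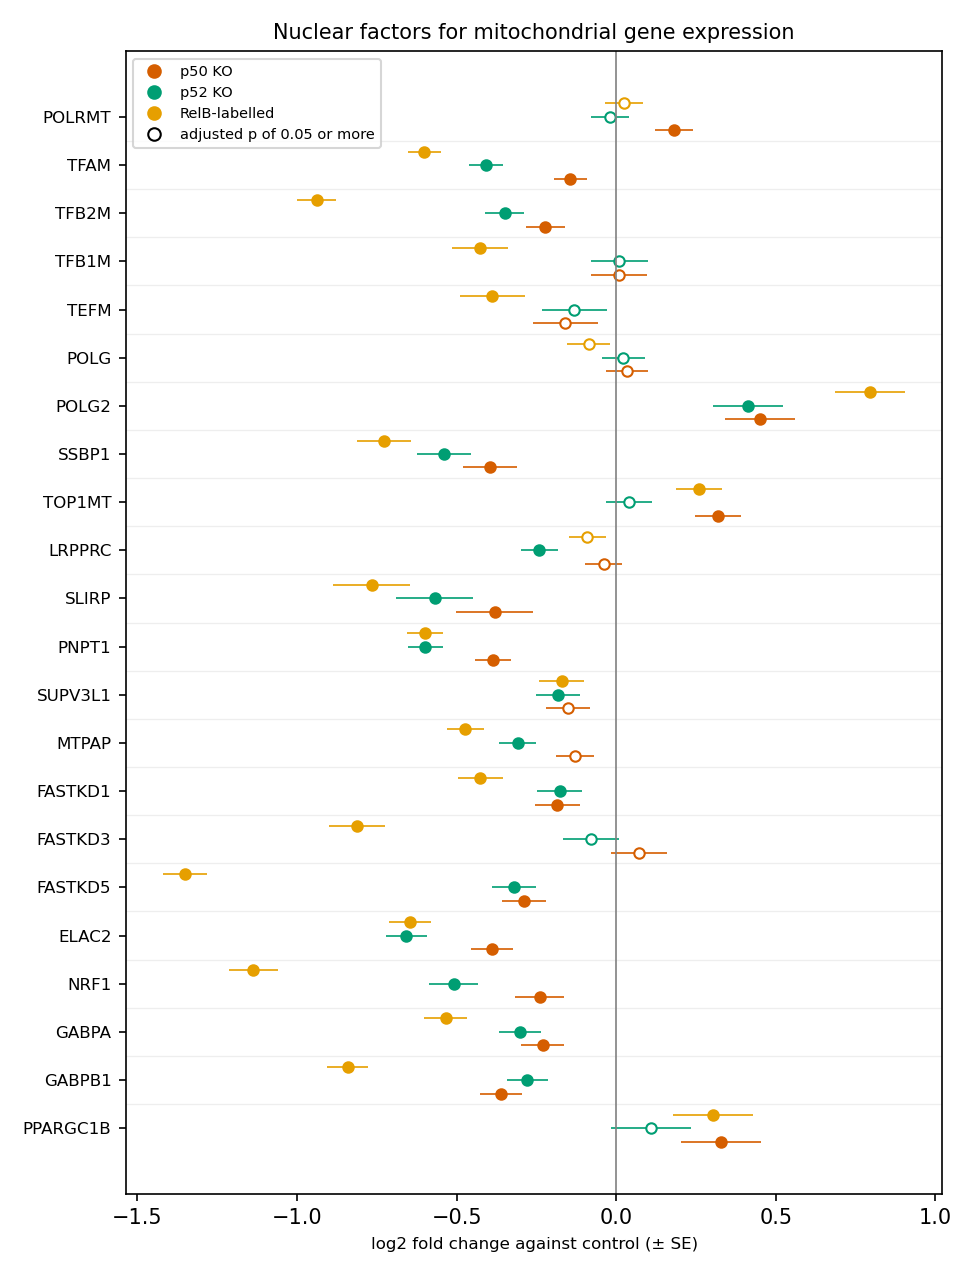
Log2 fold change against control of the 22 nuclear members for the p50 knockout, the p52 knockout and the RelB-labelled libraries; bars are 1 SE from limma, filled points passed an adjusted p of 0.05 and open points did not. FASTKD5, NRF1 and TFB2M lie lowest, at -1.35, -1.14 and -0.94 in the RelB-labelled libraries, and POLG2 lies above 0 in all 3 groups.

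Of the 4 genes of mitochondrial DNA replication and topology, SSBP1 fell while POLG2 and TOP1MT rose in the p50 and RelB-labelled libraries. SSBP1 fell while POLG2 rose in the p52 knockout. Of all genes, 19.6% fell and 17.0% rose in the p50 knockout. The shares were 26.4% and 24.5% in the p52 knockout and 34.7% and 33.1% in the RelB-labelled libraries. SSBP1 had 3146, 3347 and 4113 in the control, 2688, 2483 and 2856 with p50 knocked out, 2239.8, 2276 and 2764 with p52 knocked out and 2136, 2058 and 2168 in the RelB-labelled libraries. Its p50, p52 and RelB-labelled libraries all lay below the control, with fold changes of -0.39 (adjusted p = 0.001), -0.54 (adjusted p = 1.8e-05) and -0.73 ± 0.09 (SE), adjusted p = 1.2e-07. POLG2, the accessory subunit of the mitochondrial DNA polymerase, had 290, 265 and 288 in the control, 306, 418 and 444 with p50 knocked out, 379, 343 and 401 with p52 knocked out and 487, 503 and 474 in the RelB-labelled libraries, and 244 to 279 in the other 6. It rose in all 3 groups without overlap with the control, by 0.45 (adjusted p = 0.0027), 0.41 (adjusted p = 0.0033) and 0.80 ± 0.11 (SE), adjusted p = 1.3e-06. POLG, the catalytic subunit, was called in no comparison, and its fold change in the RelB-labelled libraries was -0.09 ± 0.07 (SE), adjusted p = 0.26.

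TOP1MT, the mitochondrial topoisomerase, had 724, 654 and 767 in the control, 889, 879.5 and 901 with p50 knocked out, 727, 747 and 729 with p52 knocked out and 854, 924 and 788 in the RelB-labelled libraries, and 594, 619 and 567 in the cRel-labelled libraries. It rose in the p50 knockout (0.32, adjusted p = 0.0016) and in the RelB-labelled libraries (0.26, adjusted p = 0.0032). In the cRel-labelled libraries it fell (-0.27 ± 0.07 SE, adjusted p = 0.027), the only member called there, and all 3 libraries lay below the control. That call was lost without control library 1 (0.075), control library 3 (0.15), cRel-labelled library 1 (0.077) or cRel-labelled library 3 (0.14), these being adjusted p-values, and it was lost in a fit of these 2 groups alone (0.075), with the trend over gene length removed (0.058) and with values rescaled to reads of nuclear genes (0.056). The calls of POLG2 and TOP1MT in the p50 knockout, and of TOP1MT in the RelB-labelled libraries, were lost with the libraries numbered 2 left out together, at adjusted p of 0.097, 0.051 and 0.2.

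Of the 9 genes for processing, tailing, stability and decay of the mRNAs, 8 fell in the RelB-labelled libraries, 8 in the p52 knockout and 5 in the p50 knockout, against 34.7%, 26.4% and 19.6% of all genes, and 0 rose in any. FASTKD5, which is needed to cut mRNAs that no transfer RNA flanks, had 1566, 1660.1 and 1558 in the control, 1396, 1190.3 and 1336 with p50 knocked out, 1321, 1311 and 1201 with p52 knocked out and 655, 569 and 653 in the RelB-labelled libraries. Its RelB-labelled libraries held the lowest values of all 18, far from the next. The fold changes were -1.35 ± 0.07 (SE), adjusted p = 3.2e-13, in the RelB-labelled libraries, -0.32 (adjusted p = 5.0e-04) in the p52 knockout and -0.29 (adjusted p = 0.0023) in the p50 knockout, where the call was lost with the libraries numbered 2 left out (0.11). FASTKD3, of the same family of RNA-binding proteins, fell in the RelB-labelled libraries (-0.81, adjusted p = 3.7e-08) and had a fold change of -0.08 (adjusted p = 0.48) in the p52 knockout. FASTKD1 fell in the RelB-labelled libraries (-0.43, adjusted p = 1.6e-05).

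ELAC2, the nuclease that cuts the 3′ ends of transfer RNAs, had 5436, 5783 and 6141 in the control, 4785, 4199.7 and 4274 with p50 knocked out, 3809, 3639 and 3549 with p52 knocked out and 3607, 3905 and 3575 in the RelB-labelled libraries. PNPT1, the mitochondrial polynucleotide phosphorylase, had 2545, 2840.1 and 2771 in the control, 2139.8, 2047 and 2047 with p50 knocked out, 1839, 1792 and 1752 with p52 knocked out and 1728, 1866 and 1784 in the RelB-labelled libraries. In both genes the p52 and RelB-labelled libraries overlapped each other and lay below the p50 knockout, which lay below the control. ELAC2 had fold changes of -0.39 (adjusted p = 8.2e-05) in the p50 knockout, -0.66 (adjusted p = 4.1e-08) in the p52 knockout and -0.65 (adjusted p = 1.1e-08) in the RelB-labelled libraries. PNPT1 had -0.39 (adjusted p = 1.9e-05), -0.60 (adjusted p = 2.1e-08) and -0.60 (adjusted p = 3.7e-09) in the same order. SUPV3L1, its helicase partner, had fold changes of -0.18 (adjusted p = 0.033) in the p52 knockout and -0.17 (adjusted p = 0.034) in the RelB-labelled libraries. Both SUPV3L1 calls were lost without control library 3, at adjusted p of 0.18 and 0.2. They were lost also after rescaling to reads of nuclear genes (0.3 and 0.29), after quantile normalisation (0.17 and 0.45) and in a fit of the 2 groups alone (0.12 and 0.058). With the length trend removed the RelB-labelled call was lost (0.11). The p52 call was lost also without p52 library 1 (0.12) or 2 (0.14), and the other one without RelB-labelled library 2 (0.091) or 3 (0.092).

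MTPAP, the mitochondrial poly(A) polymerase, had 1481, 1468 and 1433 in the control, 1180.2, 1201 and 1155 in the p52 knockout and 1010.5, 1038 and 1110.1 in the RelB-labelled libraries. It fell in both groups without overlap, with fold changes of -0.31 (adjusted p = 1.6e-04) and -0.47 (adjusted p = 3.4e-07). LRPPRC, which protects the mRNAs, had 12052, 12266 and 10796 in the control, 11452, 11588 and 11076 with p50 knocked out, 9843, 9835 and 9991 with p52 knocked out and 10898, 10830.1 and 11206 in the RelB-labelled libraries, and 11479, 11927 and 11238 and 11855, 11484 and 12573 in the cRel-labelled and RelA knockout libraries. It fell in the p52 knockout (-0.24, adjusted p = 0.0014), where all 3 libraries lay below the other 15, and its adjusted p there was 0.53 after quantile normalisation and 0.055 after rescaling to reads of nuclear genes. LRPPRC was lower in the p52 knockout than in the RelB-labelled libraries by a difference of -0.15 (adjusted p = 0.037), a call lost without p52 library 1 (0.074) or 2 (0.086) or any RelB-labelled library (0.059 to 0.11). SLIRP, its partner, fell in the RelB-labelled libraries (-0.77, adjusted p = 8.0e-06), the p52 knockout (-0.57, adjusted p = 4.5e-04) and the p50 knockout (-0.38, adjusted p = 0.017). The p50 call for SLIRP was lost without control library 3 (0.11) or p50 library 2 (0.057), after rescaling to reads of nuclear genes (0.052) and with the libraries numbered 2 left out (0.065). FASTKD1 was called in the p52 knockout (-0.18, adjusted p = 0.041) and the p50 knockout (-0.18, adjusted p = 0.046). Without control library 2 the adjusted p of FASTKD1 was 0.13 in the p52 knockout and 0.14 in the p50 knockout, and without control library 3 it was 0.074 and 0.088. After rescaling to reads of nuclear genes it was 0.37 and 0.32, and after quantile normalisation 0.2 and 0.15. It was 0.12 and 0.17 in the p52 knockout without its libraries 1 and 2, and 0.13 and 0.1 in the p50 knockout without its libraries 1 and 3; leaving any 1 of 5 cRel-labelled or RelB-labelled libraries out of the shared fit gave 0.051 to 0.055 for the p50 call.

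**Figure D5:**
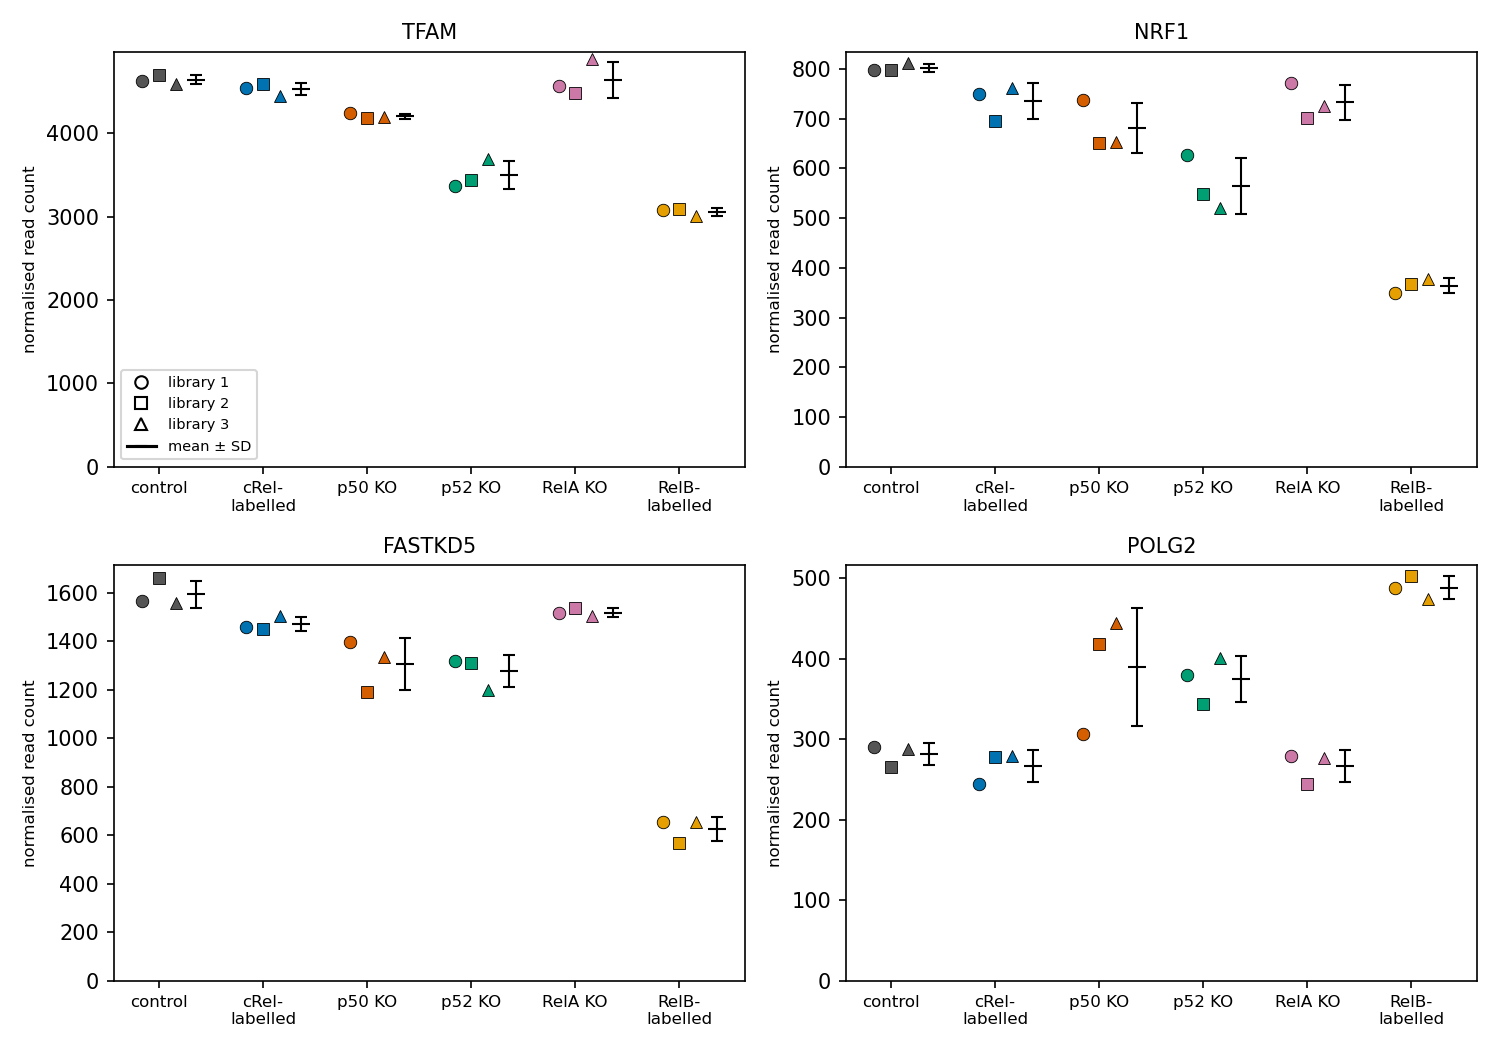
Normalised read count in each library of TFAM, NRF1, FASTKD5 and POLG2; points are libraries, and the bars give the group mean and SD of 3 libraries. The RelB-labelled libraries lie lowest for TFAM (3006 to 3096), NRF1 (348 to 378) and FASTKD5 (569 to 655) and highest for POLG2 (474 to 503).

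Of the 4 nuclear regulators, NRF1, GABPA and GABPB1 fell in the p50, p52 and RelB-labelled libraries, where 19.6%, 26.4% and 34.7% of all genes fell. NRF1, a factor that binds promoters of respiratory genes, had 798, 798 and 812 in the control, 738, 651 and 653 with p50 knocked out, 628, 548 and 519.8 with p52 knocked out and 348, 367 and 378 in the RelB-labelled libraries. The RelB-labelled libraries lay lowest of all 18, and all p50 and p52 knockout libraries lay below the control. The fold changes of NRF1 were -1.14 ± 0.08 (SE), adjusted p = 2.1e-11, in the RelB-labelled libraries, -0.51 (adjusted p = 9.5e-06) in the p52 knockout and -0.24 (adjusted p = 0.018) in the p50 knockout; the last was lost without p50 library 2 (0.075) or p50 library 3 (0.073), after rescaling to reads of nuclear genes (0.13) and with the libraries numbered 2 left out (0.17). GABPB1, the activating subunit of the GABP factor, had 1485, 1416 and 1461 in the control, 1146, 1159 and 1091 with p50 knocked out, 1225, 1143 and 1228 with p52 knocked out and 857, 756 and 822 in the RelB-labelled libraries. Its fold changes were -0.36 (adjusted p = 1.9e-04), -0.28 (adjusted p = 0.0011) and -0.84 (adjusted p = 1.9e-10), and all 9 libraries lay below the control. GABPA, its DNA-binding subunit of the ETS family, had 1171, 1232 and 1089.7 in the control, 1035, 970.1 and 969 with p50 knocked out, 902, 1017 and 914 with p52 knocked out and 803, 795 and 808 in the RelB-labelled libraries. All 9 lay below the control, with fold changes of -0.23 (adjusted p = 0.0094), -0.30 (adjusted p = 6.4e-04) and -0.53 (adjusted p = 3.0e-07), and the first of these calls was lost without control library 2 (0.054), after rescaling to reads of nuclear genes (0.12) and with the libraries numbered 2 left out (0.18).

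PPARGC1B was called higher in the p50 knockout (0.33, adjusted p = 0.045) and in the RelB-labelled libraries (0.30, adjusted p = 0.037). Control library 3 had 999, against 1436 and 1423 in the other control libraries, and without it the adjusted p was 0.32 in each comparison. The p50 call was also lost without p50 library 1 (0.14), 2 (0.063) or 3 (0.073), and stood at 0.05 to 0.053 without any 1 of 8 libraries of the other groups; the other call was lost without RelB-labelled library 1 (0.067), 2 (0.099) or 3 (0.056).

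The promoters of 19 of the 22 nuclear members are in the RefSeq table for GRCh38.p14, from 250 bases before to 50 after the start, and were searched on both strands for the binding motif of NRF1 (GCGC, then A and any base, then GCGC) and an ETS motif (CCGGAAG). The NRF1 motif was found in 4, POLG2, POLRMT, TFAM and TFB1M, against 12% of the promoters of tested genes and 6.28% of all promoters. Matches had to be exact, and near matches were not counted. TFB2M and MTPAP, for instance, hold stretches that differ from the NRF1 motif in its first base alone. The ETS motif was found in 8, against 19.9% and 10.7%, and the kappaB motif in 3, POLG, POLRMT and TFB1M, against 12.9% and 10.8%. The 150 bases before the start are shown for the 4 genes with an NRF1 motif, since NRF1 mRNA fell while these genes went different ways. Each is written 5′ to 3′ on the gene's strand, with capitals marking matches of the NRF1 and ETS motifs on either strand; in POLRMT 2 NRF1 matches overlap. TFAM is at chr10:58385260-58385409 on the plus strand, and TFB1M at chr6:155314485-155314634, POLG2 at chr17:64497055-64497204 and POLRMT at chr19:633538-633687 on the minus strand.
TFAM: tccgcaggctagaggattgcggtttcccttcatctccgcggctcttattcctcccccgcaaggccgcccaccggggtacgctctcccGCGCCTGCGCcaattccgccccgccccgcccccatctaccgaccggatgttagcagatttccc
TFB1M: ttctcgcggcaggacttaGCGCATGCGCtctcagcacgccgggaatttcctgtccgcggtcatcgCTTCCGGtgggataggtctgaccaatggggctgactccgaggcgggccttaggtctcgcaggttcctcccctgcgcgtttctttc
POLG2: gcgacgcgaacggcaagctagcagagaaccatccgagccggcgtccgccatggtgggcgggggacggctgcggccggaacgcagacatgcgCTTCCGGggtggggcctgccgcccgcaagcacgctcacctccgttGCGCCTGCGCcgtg
POLRMT: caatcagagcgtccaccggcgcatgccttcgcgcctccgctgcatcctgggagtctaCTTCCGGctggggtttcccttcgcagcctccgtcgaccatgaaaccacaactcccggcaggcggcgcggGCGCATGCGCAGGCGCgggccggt

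In the RelB-labelled libraries, where the NRF1 log2 fold change was -1.14, it was -0.60 for TFAM, -0.43 for TFB1M, 0.80 for POLG2 and 0.02 for POLRMT. A match of letters in these windows is not a bound site, and binding was not measured.

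Over the 22 nuclear members the calls were 3 higher and 16 lower in the RelB-labelled libraries, 1 higher and 14 lower in the p52 knockout and 4 higher and 11 lower in the p50 knockout. The share of all genes that fell was 34.7%, 26.4% and 19.6% in the same order, and the share that rose was 33.1%, 24.5% and 17.0%. The median log2 fold change of the nuclear members was -0.50, -0.26 and -0.15, against -0.0038, 0.0022 and -0.0028 over all genes. Rescaling to reads of nuclear genes changed the balance of calls over all genes: the share of called genes that were higher went from 46.5% to 68.7% in the p50 knockout, from 48.1% to 63.9% in the p52 knockout and from 68.4% to 80.2% in the cRel-labelled libraries. With it the nuclear members gave 4 higher and 5 lower with p50 knocked out, 1 and 11 with p52 knocked out and 3 and 15 in the RelB-labelled libraries. With the libraries numbered 2 left out, they gave 0 higher and 4 lower in the p50 knockout (SSBP1, PNPT1, ELAC2 and GABPB1), and without p50 library 2 alone 2 higher and 8 lower.

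In the RelA knockout the members lay between -0.24, for MT-CO2, and 0.038 on the log2 scale, with a median of -0.069 against -0.011 over all genes. TFB1M (-0.23, adjusted p = 0.14) and POLRMT (-0.13, adjusted p = 0.23) had the smallest p there. In the cRel-labelled libraries the median was -0.12 against -0.019. There 9 members lay below the control without overlap and 0 above, where groups did not overlap for 26.7% of all genes, and among the 9 were PNPT1 (-0.15, adjusted p = 0.11) and TFB2M (-0.15, adjusted p = 0.16).

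Tested against one another, the 5 knockouts differed in 33 of 35 members by the moderated F-test, against 78.8% of all genes. MT-ND2 and POLG were the exceptions, with adjusted p of 0.063 and 0.3. Mitochondrial mRNAs were lower in the p50 knockout than in the RelA knockout for 12 of 13 (39.2% of all genes were called in that pair, in either direction), than in the RelB-labelled libraries for 11 (53.1%) and than in the cRel-labelled libraries for 9 (31.1%). These counts rest on single libraries: without p50 library 2 they were 2, 7 and 0, without RelA library 3 the first was 7, and without cRel-labelled library 1 or 3 the last was 0 or 1. Between the p50 and p52 knockouts 1 of the 13 was called, MT-ND4L (-0.36, adjusted p = 0.016), against 22.2% of all genes, and with single libraries left out the count ranged from 0 (without p50 library 2 or p52 library 1) to 6 (without p50 library 1).

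MT-ND4 and MT-ND4L were higher in the RelB-labelled libraries than in each of the 4 other knockouts, and these 8 calls held with each of the 18 libraries left out in turn. MT-ND4 and MT-ND4L share an mRNA, so their calls are not independent of one another. All genes called made up 65.8% in the pair with the cRel-labelled libraries, 53.1% with the p50 knockout, 45.4% with the p52 knockout and 67.2% with the RelA knockout. The log2 difference of MT-ND4 from the RelB-labelled libraries was -0.65 (adjusted p = 0.0074) for the RelA knockout, -0.74 (adjusted p = 0.0051) for p52, -0.79 (adjusted p = 0.0017) for the cRel-labelled libraries and -1.24 (adjusted p = 2.3e-05) for the p50 knockout.

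Among the nuclear members, 11 were lower and 3 higher in the RelB-labelled libraries than in the p52 knockout. Of all 12381 genes tested, 2957 (23.9%) were lower and 2665 higher in the RelB-labelled libraries in that pair. With the libraries numbered 2 left out the counts of nuclear members were 8 and 0. The log2 difference of the p52 knockout from the RelB-labelled libraries was 1.03 (adjusted p = 9.6e-11) for FASTKD5, 0.63 (adjusted p = 7.2e-07) for NRF1, 0.59 (adjusted p = 7.6e-08) for TFB2M and 0.19 (adjusted p = 0.0044) for TFAM. ELAC2 and PNPT1 did not pass the test between those groups, with differences of -0.01 ± 0.06 (SE), adjusted p = 0.9, and 0.00 (adjusted p = 0.98) for PNPT1. Between the p50 and p52 knockouts 8 nuclear members were called, each higher in the p50 knockout, as 11.2% of all genes were, among them ELAC2 (0.27, adjusted p = 0.0041), TFAM (0.26, adjusted p = 7.7e-04) and POLRMT (0.20, adjusted p = 0.016). Without p50 library 1 this count was 5 and with the libraries numbered 2 left out it was 3, and the POLRMT call was lost without p50 library 1 (0.074) or p52 library 3 (0.064). POLG2 was higher in the RelB-labelled libraries than in each of the others, though not than in the p50 knockout without p50 library 1 (adjusted p = 0.13), and its difference between the p50 and p52 knockouts was 0.04 (adjusted p = 0.84).

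Other genes of mitochondrial gene expression are given by count, to be read against the shares of all genes: 34.7% fell and 33.1% rose in the RelB-labelled libraries, 26.4% and 24.5% in the p52 knockout and 19.6% and 17.0% in the p50 knockout. Of 72 mitochondrial ribosomal proteins tested, 61 fell and 0 rose in the RelB-labelled libraries, 53 and 0 in the p52 knockout, 28 and 0 in the p50 knockout, 3 and 0 in the cRel-labelled libraries and 1 and 0 in the RelA knockout. Of all 12381 genes tested, 238 (1.92%) fell in the cRel-labelled libraries and 326 in the RelA knockout. In the RelB-labelled libraries MRPL1 had a log2 fold change of -0.95, MRPL15 of -0.79 and MRPL3 of -0.62. Of 76 nuclear subunits of the respiratory chain, 35 fell and 6 rose in the RelB-labelled libraries, 27 and 3 in the p52 knockout, 24 and 0 in the p50 knockout and 0 in the remaining knockouts. CYCS, cytochrome c, had -0.65 in the RelB-labelled libraries, and the complex I subunits NDUFS6 and NDUFB6 had -0.76 and -0.61. The list medians in the RelB-labelled libraries were -0.44 for the ribosomal proteins and -0.13 for the respiratory chain.

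Of 26 other genes that process mitochondrial RNA, 19 fell and 1 rose in the RelB-labelled libraries and 13 and 0 did in the p52 knockout, among them TRMT10C, a part of mitochondrial RNase P (-1.09, adjusted p = 4.8e-11), the helicase DDX28 (-0.96) and the ribosomal RNA methyltransferase FTSJ2 (-0.54) in the RelB-labelled libraries. Of 15 other genes for mitochondrial DNA maintenance, 8 fell and 3 rose in the RelB-labelled libraries, where 34.7% of all genes fell and 33.1% rose. The nuclease FEN1 had -1.41, RNASEH1, which cuts RNA paired with DNA, -0.87 and the pyrimidine carrier SLC25A33 -0.88. Of 7 other transcription genes 4 fell and 1 rose there: the termination factor MTERF1 had -0.72 and MTERF2 0.92, while POLDIP2 had -0.40 in the p52 knockout. Of 16 genes in the list for translation, 12 fell and 2 rose in the RelB-labelled libraries. There C12orf65 had 0.92, and LETM1, which is in the list but is not a translation factor, had -0.51. The elongation factor GFM1 had -0.45 in the p52 knockout. Of 9 proteases and chaperones 7 fell and 2 rose in the RelB-labelled libraries; the chaperone HSPD1 had -0.71 there, and HSPA9 and the protease AFG3L2 had -0.55 and -0.39 in the p52 knockout. Of 8 regulators of mitochondrial biogenesis 3 fell and 1 rose in the RelB-labelled libraries, with SIRT1 at -0.65, PPRC1 at -0.74 and TFE3 at 0.35.

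In the p52 knockout, where 26.4% of all genes fell and 24.5% rose, 8 of the maintenance genes fell and 3 rose, 2 of the transcription genes fell and 1 rose, 8 of translation fell and 0 rose, 6 proteases and chaperones fell and 2 rose, and 1 biogenesis regulator fell and 0 rose. In the p50 knockout, where 19.6% fell and 17.0% rose, 6 of the 26 RNA processing genes fell and 0 rose, 6 of maintenance fell and 2 rose, 1 of transcription fell and 1 rose, 2 of translation fell and 0 rose, 5 proteases and chaperones fell and 2 rose, and 0 biogenesis regulators were called. In the cRel-labelled libraries, where 1.92% of all genes fell, 1 RNA processing gene fell, and 0 genes of the other 5 of these lists were called. In the RelA knockout 0 genes of these 6 lists were called.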

How the data were processed

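Polyadenylated RNA from 18 libraries of GM12878 was sequenced, in 6 groups of 3. Per the labels' protocols, the input was 1 µg of RNA and the kit was a directional one. The submitters' processing notes name STAR 2.5.2b, featureCounts 1.5.1, DESeq2 1.14.1 and the build GRCh37. They do not give the annotation, a filter on genes or the strand setting. The deposited signal is a normalised read count, reads divided by 1 size factor per library: 100% of 308790 values were whole reads within 0.0001, and 1 read was worth 0.646 to 1.46 units. Libraries held 15.2 to 37.5 M reads.

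The main test was limma 3.58.1 in R 4.3.3, with an intensity trend, on log2(value + 1), 1 fit of all 18 libraries with a mean per group. It was two-sided and covered 12381 genes, those averaging 10 or more normalised reads, with Benjamini-Hochberg adjustment over them. The log2(value + 1) scale understates changes of genes with few reads. A moderated F-test compared the 5 knockouts, and their 10 pairs were tested. Mitochondrial share and MT-ND6 ratio were compared by exact permutation of 3 against 3. The permutation test was checked on made-up values with a known answer. The labels call the libraries biological replicates, and since nothing says whether they came from separate transductions, the p-values here describe no more than the spread among these libraries. The 5 comparisons with the control share its 3 libraries.

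Alternatives were pseudocounts of 0.5 and 10, no filter, a mean of at least 100, scaling by TMM, by reads of nuclear genes and by quantiles, edgeR 4.0.16 and DESeq2 1.42.0 on the whole reads, a fit of the 2 groups compared, the replicate number as a block, removal of the trend over gene length, and each library left out. The members, lists and rules were chosen with earlier results of these data known. Every member is accounted for. Values per library are given for MT-ND6, TFAM, POLRMT and LRPPRC and for up to 3 called members of each role with the smallest p in each comparison, and up to 3 called genes of each other list are named by the same order; PPARGC1B and ratios of mitochondrial mRNAs were added after their values were seen. GENCODE 29 gave gene lengths (99.85% of tested genes), order and overlaps, and RefSeq promoters (GRCh38.p14) gave sequences.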

Additional observations from a re-analysis of the deposited data

How the results depend on the processing

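Of the member calls, 20 of 27 in the p50 knockout, 4 of 16 in the p52 knockout, 4 of 21 in the RelB-labelled libraries and the 1 in the cRel-labelled libraries were lost under at least 1 alternative; where no library was left out, the cause was not tested. Members called in the p50 knockout numbered 13 to 27 with 1 library left out (13 without p50 library 2) and 9 with the libraries numbered 2 left out. In the cRel-labelled libraries they numbered 0 after rescaling to nuclear reads, 0 in the fit of 2 groups, 2 with the length trend removed and 0 to 1 with 1 library left out. Calls over all genes moved from 687 to 404 in the RelA knockout, from 754 to 282 in the cRel-labelled libraries and from 4539 to 2306 in the p50 knockout with the libraries numbered 2 left out. In the RelA knockout they were 442 without control library 1, 454 without RelA library 1 and 413 without RelA library 3. In the cRel-labelled libraries they were 481 without control library 3, 475 without cRel-labelled library 2 and 448 without cRel-labelled library 3.

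Each value that changed sign belonged to a difference that had not passed its test. With 1 library left out, the difference in mitochondrial share ran from -0.66 to 0.12 in the cRel-labelled libraries and from -0.54 to 0.13 in the RelA knockout, and the first was 0.077 with the libraries numbered 2 left out. The MT-ND6 ratio ran from -0.082 to 0.027 in the cRel-labelled libraries, from -0.042 to 0.11 in the p52 knockout and from -0.030 to 0.075 in the RelA knockout, where it was -0.077 against the median of the other mRNAs and -0.046 with the libraries numbered 2 left out. The log2 fold change of MT-ND6 ran from -0.37 to 0.030 in the cRel-labelled libraries, -0.25 to 0.11 in the RelA knockout and -0.21 to 0.16 in the RelB-labelled libraries. That of POLRMT ran from -0.055 to 0.0039 in the cRel-labelled libraries, -0.050 to 0.016 in the p52 knockout and -0.0076 to 0.052 in the RelB-labelled libraries, that of TFAM from -0.039 to 0.024 in the RelA knockout, and that of LRPPRC from -0.075 to 0.017 in the cRel-labelled libraries and -0.023 to 0.069 in the RelA knockout. After rescaling to nuclear reads, the cRel-labelled values were 0.014 for POLRMT, 0.0016 for TFAM and 0.021 for LRPPRC. LRPPRC was 0.051 for p50 and 0.0007 for the RelB-labelled libraries, POLRMT 0.079 in the p52 knockout, TFAM 0.030 in the RelA knockout and MT-ND6 0.039 in the RelB-labelled libraries. After quantile normalisation LRPPRC was 0.017 (cRel-labelled), 0.11 (p50) and 0.080 (RelB-labelled), POLRMT 0.092 in the p52 knockout and TFAM 0.015 in the RelA knockout. In the RelA knockout TFAM was 0.0085 with TMM, 0.0095 with edgeR, 0.0032 with DESeq2 and 0.033 with the libraries numbered 2 left out, and with the length trend removed MT-ND6 was 0.060 and LRPPRC -0.026. With the libraries numbered 2 left out POLRMT was -0.0048 in the RelB-labelled libraries.

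The labels link libraries of different groups only by a number, and the main fit did not treat them as pairs. In 0 of 5 knockouts were all 3 correlations of deviations with the same-numbered control library above 0.1. Yet 16 of 18 libraries correlated best with one of their own number, so the libraries hold structure that goes with the number. The main fit leaves this out, and its source was not tested. With the replicate block 28 members were called in the p50 knockout, 18 in the p52 knockout and 23 in the RelB-labelled libraries, against 27, 16 and 21. The lowest mean of a member was that of TEFM, at 324 normalised reads, and the effect of depth on the calls was not tested.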
